A study of Homo sapiens with 10 samples.

Results

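The genes described here are 7 intermediate filament genes, KRT7, KRT8, KRT18, KRT19, KRT80, KRT81 and VIM, and PLEC, whose protein ties such filaments to the rest of the cell. These 8 genes were taken by symbol from the 58735 rows of the deposited count table. They were chosen by their fold changes between the same 2 groups of libraries that are compared below, so their differences are descriptions, and any count of them past a threshold is read as such. Of the 8 genes, 6 had enough counts to enter the fit over 13934 tested rows, and KRT19 and KRT81 did not.

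The RNA came from human cells (HCMEC) whose labels give brain as the tissue, endothelial cell as the type and a cell line as the source. In 5 libraries the cells had been transfected with a small interfering RNA (siUSP9X) directed at USP9X, an enzyme that takes ubiquitin off other proteins, and in the other 5 with a control siRNA (siCtrl). Cells of both groups also received Wnt3a, a Wnt/beta-catenin ligand, for 12 h after 48 h of transfection, and cells without Wnt3a were not analysed here. The study's title asks how USP9X acts on Wnt signalling in vessels of the central nervous system. Nothing in the labels ties the 5 libraries of a group to separate cultures, and p-values then cover only the scatter of these libraries, which may be technical.

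Intermediate filaments are ropelike polymers that give cells mechanical strength. Keratins assemble only as pairs of an acidic type I chain and a basic type II chain, and the pair of KRT8 and KRT18 is the one typical of simple, single-layered epithelia. Vimentin, a type III protein, polymerises with itself and is the usual filament of endothelial and mesenchymal cells, while plectin is a very large linker that binds filaments to actin, microtubules and junctions. A monomer without its partner is generally unstable as a protein, which RNA counts do not measure.

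Counts per library, divided by 1000000, were 15.96 to 20.44 in siUSP9X and 17.72 to 26.47 in siCtrl. The targeted gene USP9X had 36.5, 68.7, 27.5, 22.3 and 20.7 CPM (counts per 1000000 counts of the library, scaled) in siUSP9X replicates 1 to 5, against 415, 283, 330, 323 and 351 CPM in siCtrl replicates 1 to 5. Its log2 fold change was -3.28 ± 0.32 (SE, siUSP9X over siCtrl). Replicate 2 of siUSP9X stood apart: it held the most USP9X of its group, and its ribosomal protein genes held 2.15% of all counts, where the rest of siUSP9X had 4.48% to 5.19% and siCtrl had 4.85% to 6.45%. Its part in the results was not otherwise tested than by leaving it out.

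The label was checked against 11 endothelial marker genes. ERG was at 0 in all 10 libraries, and PECAM1 (8 counts summed over siUSP9X, 8 over siCtrl), VWF (4 and 5) and KDR (2 and 4) were close to 0. The VE-cadherin gene CDH5 had 74 counts in siUSP9X and 53 in siCtrl, while ESAM averaged 143 ± 43.3 CPM (162 without siUSP9X replicate 2) and 161 ± 15.8 CPM, and ENG 59.1 ± 11.9 CPM and 84.0 ± 5.46 CPM (SD, n = 5 each). Several defining endothelial markers were therefore absent or nearly so, and the cells are called here by their label only. Of the 12 epithelial markers other than keratins, 5 had enough counts to enter the fit. The 12 summed to 12.2 to 16.2 CPM in siUSP9X and 15.2 to 20.9 CPM in siCtrl. Among them EPCAM had 29 counts in siUSP9X and 91 in siCtrl, and CDH1 had 13 and 23. Most of the sum came from other genes of the list.

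KRT8 and KRT18 were among the more abundant transcripts of these cells, and both were lower in siUSP9X. KRT18, the type I chain, measured 1005, 767, 968, 1013 and 970 CPM in siUSP9X replicates 1 to 5, against 1465, 1740, 1556, 1637 and 1491 CPM in siCtrl replicates 1 to 5. The highest siUSP9X library lay well below the lowest siCtrl library, and replicate 2 was the lowest siUSP9X library. The means were 945 ± 101 CPM in siUSP9X and 1578 ± 112 CPM in siCtrl (SD, n = 5 each), a difference of 1.67-fold. On the log2 scale this was -0.74 ± 0.10 with all libraries and -0.67 ± 0.07 without siUSP9X replicate 2.

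KRT8, the type II partner of KRT18, measured 1628, 1261, 1571, 1741 and 1692 CPM in siUSP9X, against 1846, 2432, 2335, 2146 and 2005 CPM in siCtrl. The groups did not overlap, but siCtrl replicate 1 came close to siUSP9X replicate 4. The means of KRT8 were 1579 ± 189 CPM in siUSP9X and 2153 ± 238 CPM in siCtrl (SD, n = 5 each), 1.36-fold apart. Its log2 fold change was -0.45 ± 0.12, and -0.38 ± 0.08 without siUSP9X replicate 2.

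KRT7, a type II keratin of ducts, glands and mesothelium, measured 571, 308, 538, 611 and 529 CPM in siUSP9X, against 578, 878, 745, 867 and 772 CPM in siCtrl. Here the groups overlapped, because siUSP9X replicate 4 was above siCtrl replicate 1, and siUSP9X replicate 2 was far below the rest of its group. The means were 511 ± 118 CPM in siUSP9X and 768 ± 121 CPM in siCtrl (SD, n = 5 each), with a log2 fold change of -0.59 ± 0.18. Without siUSP9X replicate 2 the KRT7 difference was -0.45 ± 0.10, so that library carried part of its size.

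KRT80, a type II keratin found at cell borders of epithelia, was the least abundant of the 4 tested keratins. It measured 217, 169, 183, 211 and 196 CPM in siUSP9X, against 217, 234, 241, 278 and 266 CPM in siCtrl. Only siUSP9X replicate 1 reached into the siCtrl range, by a margin of under 1 CPM over siCtrl replicate 1. The means were 195 ± 19.7 CPM in siUSP9X and 247 ± 24.8 CPM in siCtrl (SD, n = 5 each), and the log2 fold change was -0.34 ± 0.11, or -0.29 ± 0.08 without siUSP9X replicate 2.

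VIM, the type III filament gene, measured 622, 570, 655, 583 and 567 CPM in siUSP9X, against 587, 702, 566, 627 and 630 CPM in siCtrl. Its libraries were intermixed, and no library of either group stood apart. Means were 599 ± 38.2 CPM in siUSP9X and 622 ± 52.1 CPM in siCtrl (SD, n = 5 each), with a log2 fold change of -0.05 ± 0.09, or -0.04 ± 0.08 without siUSP9X replicate 2.

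PLEC, which encodes the linker plectin, measured 930, 1190, 891, 1049 and 1072 CPM in siUSP9X, against 1071, 773, 1135, 1349 and 1163 CPM in siCtrl. These groups overlapped as well: siUSP9X replicate 2 was the highest of its group and siCtrl replicate 2 the lowest of all 10 libraries. The PLEC means were 1026 ± 119 CPM in siUSP9X and 1098 ± 209 CPM in siCtrl (SD, n = 5 each), and its log2 fold change was -0.10 ± 0.14, or -0.16 ± 0.12 without siUSP9X replicate 2.

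**Figure D1:**
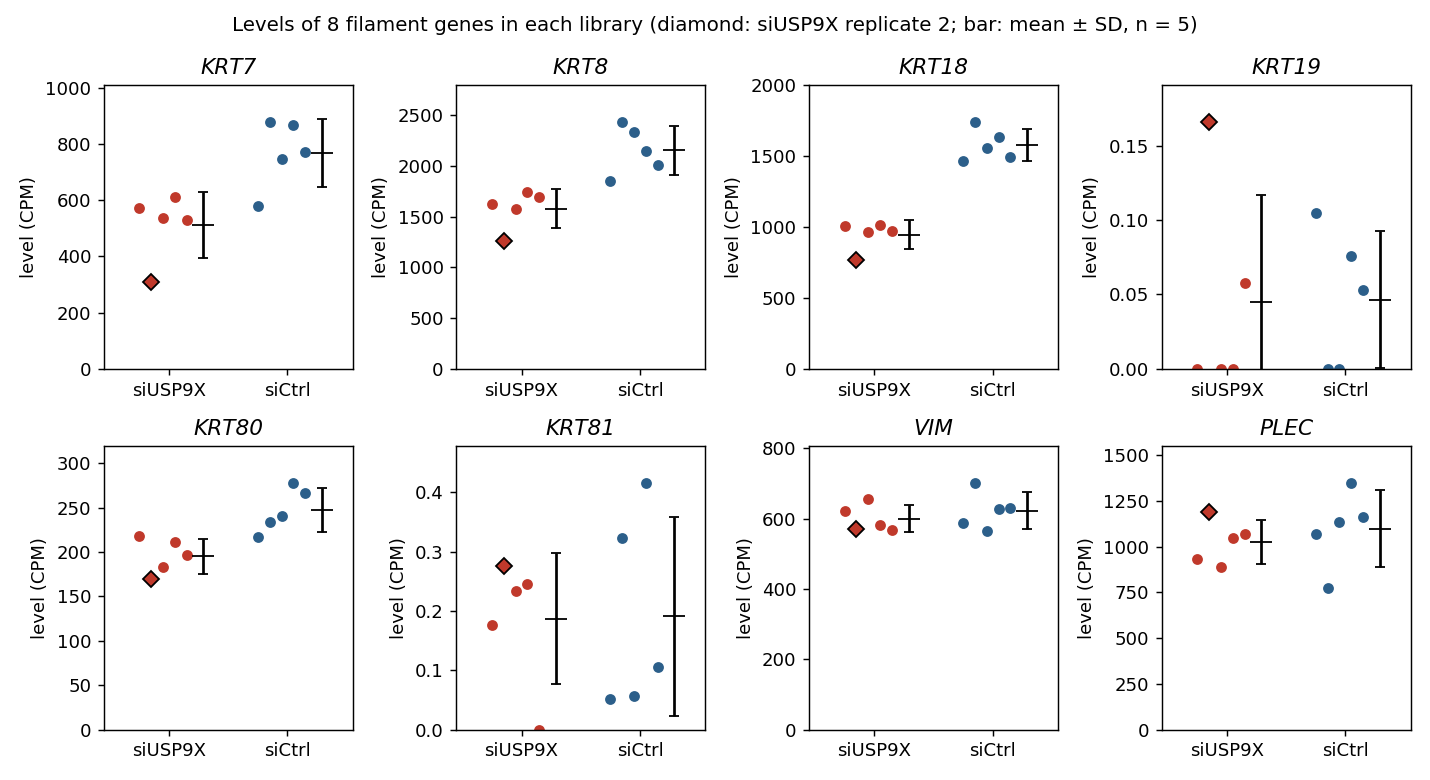
Level of each of the 8 genes in every library, in CPM (y axis, from 0), with siUSP9X left of siCtrl; points are libraries, the diamond is siUSP9X replicate 2, and the bar is the mean ± SD (n = 5). All siUSP9X points of KRT18 (767 to 1013 CPM) lie below all siCtrl points (1465 to 1740 CPM), the points of VIM and PLEC are intermixed, and KRT19 and KRT81 are near 0.

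KRT19 and KRT81 were barely detected. KRT19, the smallest type I keratin, had 0, 3, 0, 0 and 1 counts in siUSP9X, against 2, 0, 0, 2 and 1 counts in siCtrl. Pooled over a group, KRT19 came to 0.0467 CPM in siUSP9X (95% exact Poisson interval 0.0127 to 0.1195) and 0.0496 CPM in siCtrl (0.0161 to 0.1158). KRT81, a type II hair keratin, had 3, 5, 4, 4 and 0 counts in siUSP9X, against 1, 6, 1, 11 and 2 counts in siCtrl. That made 0.187 CPM in siUSP9X (0.107 to 0.303) and 0.208 CPM in siCtrl (0.129 to 0.319), and these intervals cover counting error only. A difference between the groups was not detectable for either gene at this depth. KRT19 is the usual other type I chain of simple epithelia, and in these libraries KRT18 was nearly the only type I chain among the 8 genes.

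Across the tested 6, all log2 fold changes were below 0, with a median of -0.39, against 0.026 over all tested rows; for the 4 keratins the median was -0.52. The edgeR quasi-likelihood test with Benjamini-Hochberg adjustment over all rows put 2 of the 6 genes, KRT8 and KRT18, past the threshold of 0.05 in the lower direction, beside 449 of 13934 rows (3.22%) that did so in the whole table. Without siUSP9X replicate 2 the lower calls were KRT7, KRT8, KRT18 and KRT80, 4 of the 6, beside 1620 of 14086 rows (11.5%). The same 2 genes as with all libraries, KRT8 and KRT18, were those whose siUSP9X libraries all lay below the siCtrl libraries, which held for 955 rows (6.85%) in the table. With all libraries DESeq2 called KRT7, KRT8, KRT18 and KRT80 lower, beside 6.88% of its rows, and limma-voom called KRT8 and KRT18, beside 3.32%. Nothing is read from these counts, because the genes were selected on this contrast. The KRT8 call was lost when any 1 of siUSP9X replicates 1, 3 or 5 or siCtrl replicates 2, 3, 4 or 5 was left out. In bulk RNA, fewer cells of a type and less RNA per cell cannot be told apart.

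**Figure D2:**
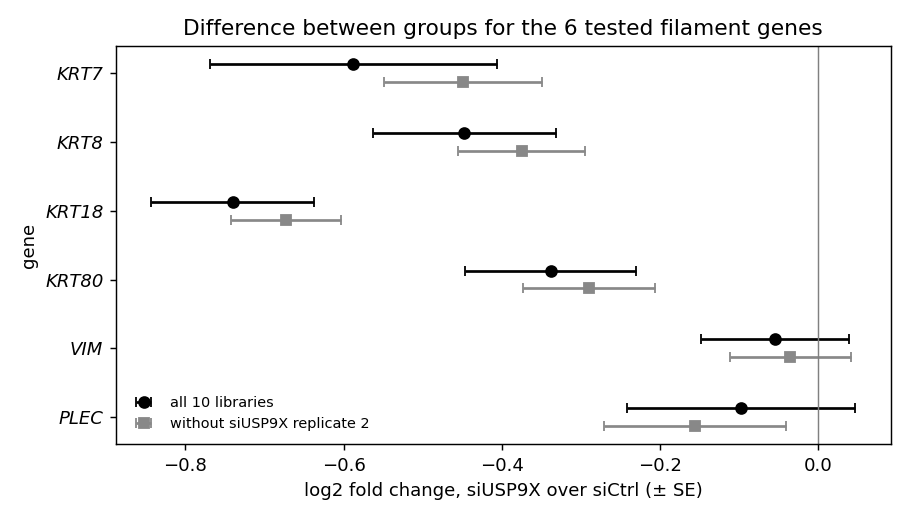
Log2 fold change of siUSP9X over siCtrl (x axis) for the 6 tested genes (y axis), with bars of 1 SE, for all 10 libraries (black circles) and without siUSP9X replicate 2 (grey squares). The 4 keratins lie between -0.74 and -0.34 with all libraries, and the values of VIM and PLEC are -0.05 and -0.10; leaving out the library moves KRT7 furthest, to -0.45.

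Levels of different genes were compared per length, as counts per kilobase of annotated exon scaled to a sum of 1000000 per library. On that scale KRT18 was the highest of the 8 genes, with 1099 ± 104 in siUSP9X and 1764 ± 74.0 in siCtrl (SD, n = 5 each), rank 74 and rank 51 among all rows with a length. KRT8 followed with a per-length level of 859 ± 91.4 in siUSP9X and 1125 ± 90.6 in siCtrl. The length takes in every annotated exon, 6881 bases for KRT8, whose coding sequence has 1452, and 3218 for KRT18. The order of KRT18 over KRT8 rests on those lengths, since KRT8 was above KRT18 in CPM in both groups. Other lengths could reverse it. KRT7 came after KRT8 in siCtrl, at 674 ± 90.9, and had 467 ± 102 in siUSP9X, while VIM had 436 ± 28.7 in siUSP9X and 434 ± 24.8 in siCtrl. KRT7 and VIM overlapped in siUSP9X through replicate 2 alone, where KRT7 was at 288. In the rest of siUSP9X KRT7 was at 488 to 542, above all siUSP9X values of VIM (410 to 479). Below these stood PLEC (per-length level 227 ± 28.4 in siUSP9X, 234 ± 49.1 in siCtrl) and KRT80 (168 ± 14.5 and 205 ± 21.9), which did not differ from each other beyond their spread in siCtrl. PLEC has 16991 bases of annotated exon and KRT18 has 3218, and PLEC was above KRT18 in CPM in siUSP9X replicates 2, 4 and 5 but far below it per length. KRT81 (per-length level 0.36 in siUSP9X, 0.35 in siCtrl) and KRT19 (0.073 and 0.074) were lowest.

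Together the 6 keratins among the 8 genes took 0.352%, 0.222%, 0.338%, 0.364% and 0.345% of all counts in siUSP9X replicates 1 to 5, against 0.420%, 0.525%, 0.489%, 0.492% and 0.456% in siCtrl replicates 1 to 5. All siUSP9X shares were below all siCtrl shares.

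Ratios of 2 genes within a library do not depend on how libraries are scaled. KRT18 counts over KRT8 counts came to 0.617, 0.609, 0.616, 0.582 and 0.573 in siUSP9X, against 0.794, 0.716, 0.666, 0.763 and 0.744 in siCtrl. The ratio was lower in every siUSP9X library than in any siCtrl library, and siUSP9X replicate 2 was in the middle of its group. Its mean was 0.599 ± 0.020 in siUSP9X and 0.736 ± 0.048 in siCtrl (SD, n = 5 each), a log2 difference of -0.30 with or without siUSP9X replicate 2. The type I transcript was thus lower relative to its type II partner, not only relative to the whole library.

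For KRT7 over KRT8, both type II chains, the ratio was 0.320 ± 0.045 in siUSP9X and 0.357 ± 0.040 in siCtrl (SD, n = 5 each), and the groups overlapped. The log2 difference of this ratio was -0.16, and -0.07 without siUSP9X replicate 2. The 6 keratins summed over VIM gave 5.498, 4.40, 4.98, 6.13 and 5.98 in siUSP9X, against 6.99, 7.53, 8.62, 7.86 and 7.20 in siCtrl. This balance of keratin to vimentin transcripts was lower in every siUSP9X library, by 0.51 on the log2 scale, or 0.44 without siUSP9X replicate 2.

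**Figure D3:**
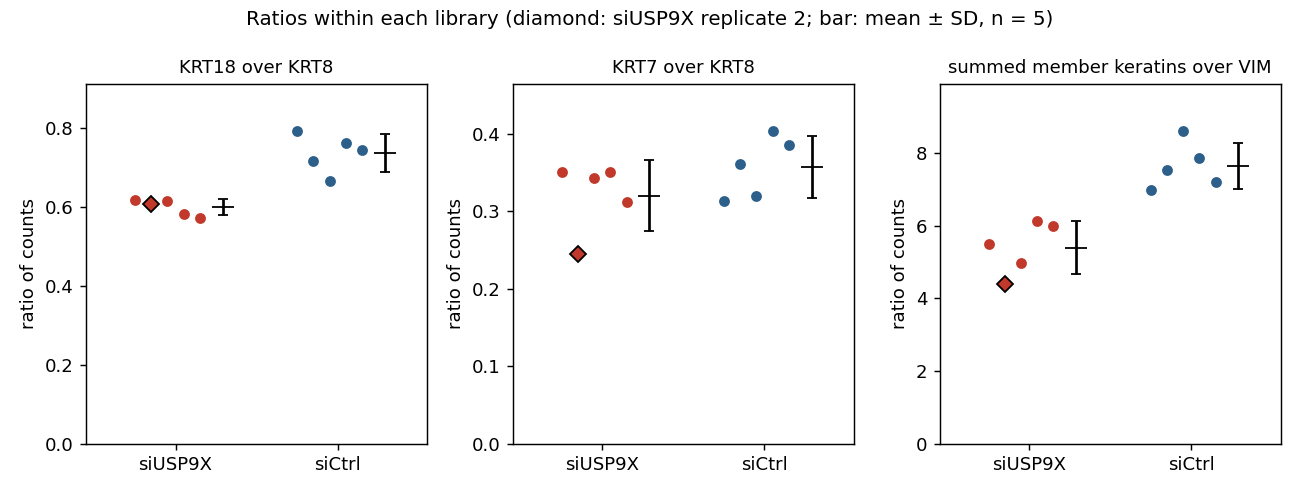
Count ratios within each library (y axis, from 0) for KRT18 over KRT8, KRT7 over KRT8 and the 6 keratins summed over VIM, with siUSP9X left of siCtrl; points are libraries, the diamond is siUSP9X replicate 2, and the bar is the mean ± SD (n = 5). The siUSP9X points of the KRT18 to KRT8 ratio (0.573 to 0.617) lie below the siCtrl points (0.666 to 0.794), while those of KRT7 to KRT8 overlap.

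The keratin genes are clustered in the genome, type II chains on chromosome 12 and type I chains on chromosome 17, with KRT18 as the type I exception beside KRT8. In GRCh38 (GENCODE 29) KRT80 spans chr12:52168996-52192000 on the minus strand, KRT7 chr12:52232520-52252186 on the plus strand, and KRT81 chr12:52285913-52291534 on the minus strand. KRT8 (chr12:52897187-52949954, minus strand) and KRT18 (chr12:52948871-52952901, plus strand) are head to head and share 525 exonic bases on opposite strands, 7.63% of the annotated exons of KRT8 and 16.3% of those of KRT18. The library kit keeps strand, but whether the counting used it was not given in the sources used here, so reads from those bases may have been assigned to either gene, which bears on the ratio of KRT18 to KRT8 as well. KRT19 lies at chr17:41523617-41528308, minus strand, VIM at chr10:17228259-17237593, plus strand, and PLEC at chr8:143915147-143976734, minus strand.

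Within 1000 kb of the KRT18 start 35 rows were tested, 4 of which were keratins described here. Of the 31 others, 0 rose and 2 fell in the edgeR quasi-likelihood test with Benjamini-Hochberg adjustment. These were ESPL1, which encodes the protease separase (log2 fold change -0.51), and AAAS, which encodes a nuclear pore protein (-0.52). The 2 calls made 6.45% of the neighbours, against 7.31% of all tested rows called in either direction. At an unadjusted p under 0.05, 3 neighbours were higher and 5 lower; DESeq2 called 0 higher and 3 lower, and limma-voom 0 and 2. The median log2 fold change of these neighbours was -0.031. Without siUSP9X replicate 2, 3 neighbours were called higher (SPRYD3, CALCOCO1 and HOXC13) and 5 lower (PFDN5, C12orf10 and ATP5MC2 beside ESPL1 and AAAS), 25.8% of the 31, against 23.4% of all rows in that fit, and the median was 0.045. In both fits the share of calls around the 4 keratins was near that of the table.

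**Figure D4:**
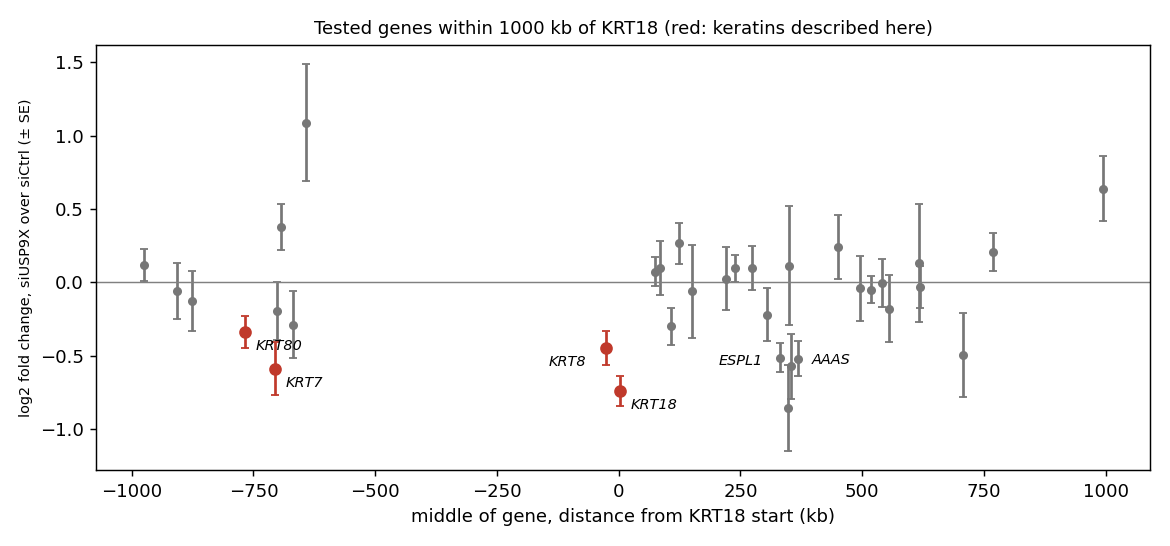
Log2 fold change of siUSP9X over siCtrl (y axis, bars of 1 SE) for the 35 tested rows within 1000 kb of KRT18, by the distance of each gene's middle from the KRT18 start (x axis, kb). The 4 keratins (red) all lie below 0, while the 31 other rows (grey) lie on both sides of it, with a median of -0.031.

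KRT8 and KRT18 have many pseudogene copies across the genome, and reads can be misplaced between a gene and its copies. The 50 KRT8 pseudogene rows held 657 counts in siUSP9X and 664 in siCtrl, 0.487% and 0.307% of the KRT8 counts, and the 67 KRT18 pseudogene rows held 76 and 80 counts, 0.094% and 0.050% of the KRT18 counts. The copies of KRT8 and of KRT18 thus held under 1% of the counts of their parent in both groups. For KRT19 this did not hold: its 5 pseudogene rows had 4 counts in siUSP9X and 0 in siCtrl, beside 4 and 5 for KRT19. Its few counts may thus also include misplaced reads, which its Poisson intervals do not cover. The most abundant copy, KRT8P12 on chromosome 3, had 5.15 ± 1.14 CPM in siUSP9X and 3.61 ± 0.62 CPM in siCtrl (SD, n = 5 each), with a log2 fold change of 0.52 ± 0.19 that missed the threshold (adjusted p = 0.108, edgeR quasi-likelihood test).

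The few KRT81 counts are uncertain for the same reason, because the hair keratin KRT86, whose annotated span on the opposite strand covers KRT81 with 0 shared exonic bases, is nearly the same sequence. Their coding sequences shared 1327 of 1399 aligned bases (94.9%), with an identical run of 605 bases. The last 60 bases of that run and the 30 that follow are shown, from GENCODE 29 transcripts (GRCh38); the stretch crosses an intron, between chr12:52288401-52289248 (minus strand) for KRT81 and chr12:52304138-52304987 (plus strand) for KRT86, and capitals mark the 2 bases that differ.
KRT81: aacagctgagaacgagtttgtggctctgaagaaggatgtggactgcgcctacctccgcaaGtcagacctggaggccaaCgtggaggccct
KRT86: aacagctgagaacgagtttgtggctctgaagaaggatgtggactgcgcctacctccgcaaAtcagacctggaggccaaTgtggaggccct
KRT86 itself had 261 counts in siUSP9X and 373 in siCtrl, against 16 and 21 for KRT81, and its log2 fold change was -0.29 ± 0.23 (adjusted p = 0.415, edgeR quasi-likelihood test), or -0.19 without siUSP9X replicate 2. How reads from the identical run were divided between the pair was not given in the sources used here.

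KRT7 and VIM each overlap an antisense row, by 282 and 641 exonic bases. KRT7-AS had 452 counts in siUSP9X and 615 in siCtrl, and VIM-AS1 had 77 and 65, small beside the 43506 and 78123 counts of KRT7 and the 51328 and 62805 of VIM. For KRT7-AS the log2 fold change was -0.20 ± 0.20, and -0.05 without siUSP9X replicate 2. For VIM-AS1 it was 0.50 ± 0.34, and 0.69 without that library.

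The 3′ untranslated regions (3′ UTRs) of the 8 genes were searched on the transcript strand for 4 words of 7 bases that had been picked earlier from fold changes of this comparison, so a match is a description only. The first of these words was AATCACA. Shifting its window by 1 base along the transcript gives the second, which overlaps it and reads ATCACAA. The words of the other pair also overlap each other when they occur together in a transcript, and the first of that pair reads CAACTCT. Its window moved along by 1 base gives the last word searched, which reads AACTCTA. At least 1 of them is in the 3′ UTR of 4007 of the 11905 tested genes that have one (33.7%). KRT7 was the only gene of the 8 to hold any: the first 2 words, overlapping, begin at base 40 after the stop codon, in a 3′ UTR of 161 bases. The site is at chr12:52248789-52248818 (GRCh38, plus strand), shown from the GENCODE 29 transcript with the joined words in capitals.
KRT7 3′ UTR site: ccaccacccacAATCACAAgaagattccca
KRT8 and KRT18, whose groups did not overlap, held none of the 4 words, and neither did KRT19, KRT80, KRT81, VIM or PLEC.

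The genes of 10 further lists were counted in the same way. Over all tested rows edgeR called 3.22% lower and 4.09% higher, DESeq2 6.88% and 7.91%, and limma-voom 3.32% and 3.67%. Before adjustment edgeR put 11.9% of rows lower and 15.9% higher, and without siUSP9X replicate 2, after adjustment, 11.5% and 11.9%. Counts in a list are to be set against these shares.

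Most other keratins had few counts or none. Of 48 listed, 26 were at 0 in all 10 libraries, among them KRT5 and KRT14, the pair of basal epidermal cells, and 4 were measured, of which 0 rose and 0 fell by the edgeR quasi-likelihood test. The counts were 0 and 0 too by DESeq2, by limma-voom and by edgeR before adjustment. KRT15, a type I chain of basal layers, was the most abundant, with 25.5 ± 5.92 CPM in siUSP9X and 22.9 ± 2.35 CPM in siCtrl (SD, n = 5 each) and a log2 fold change of 0.16 ± 0.17. KRT10, a chain of differentiating epidermis, had 11.03 ± 5.02 CPM in siUSP9X and 14.7 ± 2.38 CPM in siCtrl, a log2 fold change of -0.42 that was -0.15 without siUSP9X replicate 2. KRT17, induced in wounded epidermis, had 1.73 ± 0.95 CPM in siUSP9X and 1.02 ± 0.17 CPM in siCtrl. None of these passed the threshold, and without siUSP9X replicate 2 KRT15 (log2 fold change 0.30) and KRT17 (1.04) rose, beside 1674 of 14086 rows (11.9%) higher in the table; KRT8 and KRT18 were on the other side of 0 in that fit.

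Among 14 other intermediate filament genes 6 were measured, with 0 higher and 0 lower by edgeR. Unadjusted, 0 were higher and 1 lower, DESeq2 likewise called 0 and 1, and limma-voom 0 and 0. LMNA, which encodes the lamins A and C of the nuclear envelope, averaged 413 ± 105 CPM in siUSP9X and 594 ± 63.8 CPM in siCtrl (SD, n = 5 each), with no overlap and a log2 fold change of -0.53 ± 0.18 that missed the threshold (adjusted p = 0.0984, edgeR quasi-likelihood test). It was called lower without siUSP9X replicate 2, at -0.37. LMNB1 and LMNB2, the B-type lamins, had log2 fold changes of -0.09 ± 0.09 and -0.27 ± 0.15, or -0.05 and -0.14 without that library. SYNM, a filament protein that copolymerises with vimentin, averaged 7.96 ± 2.46 CPM in siUSP9X and 6.01 ± 0.78 CPM in siCtrl, a log2 fold change of 0.41 that was 0.25 without it.

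PLEC belongs to the plakins, the giant proteins that anchor filaments. Of the 6 other plakins 5 were measured, with 0 higher and 1 lower; unadjusted and with DESeq2 1 was higher and 2 lower, and with limma-voom 0 and 1. EVPL, envoplakin, a scaffold of the epidermal cornified envelope, fell to 27.0 ± 2.76 CPM in siUSP9X, against 35.7 ± 2.95 CPM in siCtrl (SD, n = 5 each; log2 fold change -0.40 ± 0.11, adjusted p = 0.0434, edgeR quasi-likelihood test). That call held in 2 of the 10 fits that leave out a library, those without siUSP9X replicate 2 (-0.42) or siUSP9X replicate 4. The largest log2 fold change was that of DST, dystonin, at 267 ± 201 CPM in siUSP9X and 112 ± 31.3 CPM in siCtrl, 1.25 ± 0.39 on the log2 scale (adjusted p = 0.0723); without siUSP9X replicate 2 it was 0.67 and called higher. MACF1, which crosslinks actin and microtubules, averaged 1402 ± 683 CPM in siUSP9X and 970 ± 178 CPM in siCtrl and did not pass. Its log2 fold change was 0.53, and 0.18 without siUSP9X replicate 2, where its siUSP9X mean was 1099 CPM. DSP, desmoplakin, which ties keratins to desmosomes, averaged 186 ± 89.3 CPM in siUSP9X and 175 ± 28.3 CPM in siCtrl. The DSP direction turned with that library: the log2 fold change was 0.09 ± 0.25 with it, and -0.26 (adjusted p = 0.0800, edgeR quasi-likelihood test) without it, where the siUSP9X mean was 147 CPM.

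Desmosomes and hemidesmosomes are the junctions to which keratins attach. Of 16 such genes 11 were measured, with 0 higher and 2 lower; unadjusted and with DESeq2 1 was higher and 2 lower, and with limma-voom 0 and 2. PKP3, plakophilin 3, a plaque protein of desmosomes, fell to 31.0 ± 4.26 CPM in siUSP9X, against 60.2 ± 8.86 CPM in siCtrl (log2 fold change -0.96 ± 0.14, adjusted p = 0.0027). ITGB4, the integrin subunit of hemidesmosomes that binds plectin, fell to 16.0 ± 2.14 CPM in siUSP9X, against 28.3 ± 5.95 CPM in siCtrl (-0.82 ± 0.16, adjusted p = 0.0128; SD, n = 5 each, edgeR quasi-likelihood test for both). Neither gene's groups overlapped, and both calls held in all 10 fits that leave out a library, at -0.89 and -0.79 without siUSP9X replicate 2.

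The remaining genes of this list did not pass with all libraries. JUP, plakoglobin, averaged 379 ± 57.3 CPM in siUSP9X and 336 ± 46.0 CPM in siCtrl, and DSG2, desmoglein 2, averaged 307 ± 45.2 CPM and 304 ± 43.1 CPM (SD, n = 5 each). The log2 fold change of DSG2 was 0.01, and -0.07 without siUSP9X replicate 2. DSC2, desmocollin 2, averaged 121 ± 38.1 CPM in siUSP9X and 79.3 ± 9.97 CPM in siCtrl, a log2 fold change of 0.61 ± 0.18 (adjusted p = 0.0685, edgeR quasi-likelihood test), and it was called higher without siUSP9X replicate 2, at 0.39. ITGA6, the partner of ITGB4, averaged 201 ± 90.2 CPM in siUSP9X and 266 ± 41.3 CPM in siCtrl, with siUSP9X replicate 2 alone far above its group at 360 CPM. Without that library ITGA6 fell, by 0.72 on the log2 scale. Over the 11 measured genes the median log2 fold change was -0.21, or -0.13 without siUSP9X replicate 2, against 0.026 and 0.0065 over all tested rows. The medians of the other lists lay on both sides of 0. The lowest was -0.80, for the 5 measured epithelial markers other than keratins, and the highest 0.34, for the 7 measured fibroblast and mural markers. Without siUSP9X replicate 2 these 2 medians were -1.05 and 0.19. No list median was tested.

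Of 14 genes for keratin-binding proteins and chaperones 13 were measured, with 0 higher and 1 lower, where the table had 4.09% and 3.22%; unadjusted 1 was higher and 3 lower, and DESeq2 and limma-voom each called 0 and 1. FAM83H, which brings a casein kinase to keratin filaments, fell to 72.0 ± 5.77 CPM in siUSP9X, against 99.0 ± 9.89 CPM in siCtrl (SD, n = 5 each; log2 fold change -0.46 ± 0.10, adjusted p = 0.0236, edgeR quasi-likelihood test). The FAM83H call held in 5 of 10 fits that leave out a library, and was lost without siUSP9X replicates 3 or 5 or siCtrl replicates 3, 4 or 5. SFN, the 14-3-3 protein stratifin that binds keratins, averaged 287 ± 118 CPM in siUSP9X and 490 ± 86.2 CPM in siCtrl, a log2 fold change of -0.77 ± 0.32 (adjusted p = 0.143), with siUSP9X replicate 2 lowest at 87.3 CPM. Without that library SFN was called lower at -0.54. HSPB1, the small heat shock protein HSP27, averaged 138 ± 52.1 CPM in siUSP9X and 196 ± 33.0 CPM in siCtrl, and YWHAZ, another 14-3-3 protein, 1451 ± 409 CPM and 1181 ± 86.8 CPM; neither passed. Their log2 fold changes were -0.51 and 0.30, or -0.29 and 0.11 without siUSP9X replicate 2.

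None of the 7 measured transcription factors of epithelial genes, out of 13 listed, passed the threshold in either direction by edgeR, and GRHL2 was at 0 in all libraries. Unadjusted, 1 was higher and 1 lower, while DESeq2 called 1 and 0 and limma-voom 0 and 0. KLF4 averaged 14.9 ± 4.01 CPM in siUSP9X and 9.28 ± 1.16 CPM in siCtrl (log2 fold change 0.68 ± 0.19, adjusted p = 0.0554), and TFAP2A 32.9 ± 3.65 CPM and 27.1 ± 4.43 CPM (0.28 ± 0.13). Both rose in the fit without siUSP9X replicate 2. SP1, TFAP2C and ELF3 had log2 fold changes of 0.24 ± 0.22, -0.10 ± 0.11 and 0.07 ± 0.21. Without that library they were -0.05, -0.05 and 0.22, so that the direction of SP1 turned.

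Marker lists of cell types were set beside the keratins. Of the 12 epithelial markers other than keratins 5 were measured, with 0 higher and 0 lower by edgeR, 0 and 3 unadjusted and with DESeq2, and 0 and 0 with limma-voom. Without siUSP9X replicate 2 EPCAM, ESRP1 and SPINT1 were called lower, in a fit that called 11.5% of all rows lower. The summed level of the list was 12.2 to 16.2 CPM in siUSP9X and 15.2 to 20.9 CPM in siCtrl. Of the 6 mesothelial markers 3 were measured, with 0 higher and 2 lower beside 3.22% lower in the table (the same 2 counts unadjusted, with DESeq2 and with limma-voom), at a summed level of 234 to 301 CPM in siUSP9X and 313 to 442 CPM in siCtrl. BNC1, the zinc finger protein basonuclin 1, fell to 6.34 ± 0.50 CPM in siUSP9X, against 10.6 ± 0.98 CPM in siCtrl (log2 fold change -0.74 ± 0.12, adjusted p = 0.0042).

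LRRN4, a leucine-rich repeat membrane protein, fell to 250 ± 26.0 CPM in siUSP9X, against 344 ± 49.8 CPM in siCtrl (-0.46 ± 0.12, adjusted p = 0.0433; SD, n = 5 each, edgeR quasi-likelihood test for both genes). The BNC1 call held in 10 of 10 fits that leave out a library and the LRRN4 call in 2, those without siUSP9X replicate 2 (-0.41) or siCtrl replicate 2. The other mesothelial markers were WT1 at 15.5 ± 1.39 CPM in siUSP9X and 17.5 ± 1.38 CPM in siCtrl, and MSLN, CALB2 and UPK3B near 0, UPK3B with 0 counts in siUSP9X and 3 in siCtrl.

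Of the 11 endothelial markers 4 were measured, with 0 higher and 0 lower by edgeR, 0 and 1 unadjusted and with DESeq2, and 0 and 0 with limma-voom. Their summed level was 109 to 254 CPM in siUSP9X and 236 to 299 CPM in siCtrl, and without siUSP9X replicate 2 EGFL7 and ENG were called lower (11.5% of all rows in that fit). Of the 12 fibroblast and mural markers 7 were measured, with 0 higher and 0 lower by edgeR, 2 and 0 unadjusted, 1 and 0 with DESeq2, and 0 and 0 with limma-voom. They summed to 414 to 739 CPM in siUSP9X and 243 to 386 CPM in siCtrl, and most of this was FN1, fibronectin (393 ± 115 CPM in siUSP9X, 235 ± 53.3 CPM in siCtrl). FN1 and TAGLN were called higher without siUSP9X replicate 2 (11.9% of all rows in that fit). The summed mesothelial level was lower, and the summed fibroblast and mural level higher, in every siUSP9X library than in any siCtrl library. Most of the mesothelial sum was LRRN4, as most of the other was FN1. Each sum thus mainly follows 1 gene and is not read as the level of a cell type. The part of these markers in the keratin differences was not tested.

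**Figure D5:**
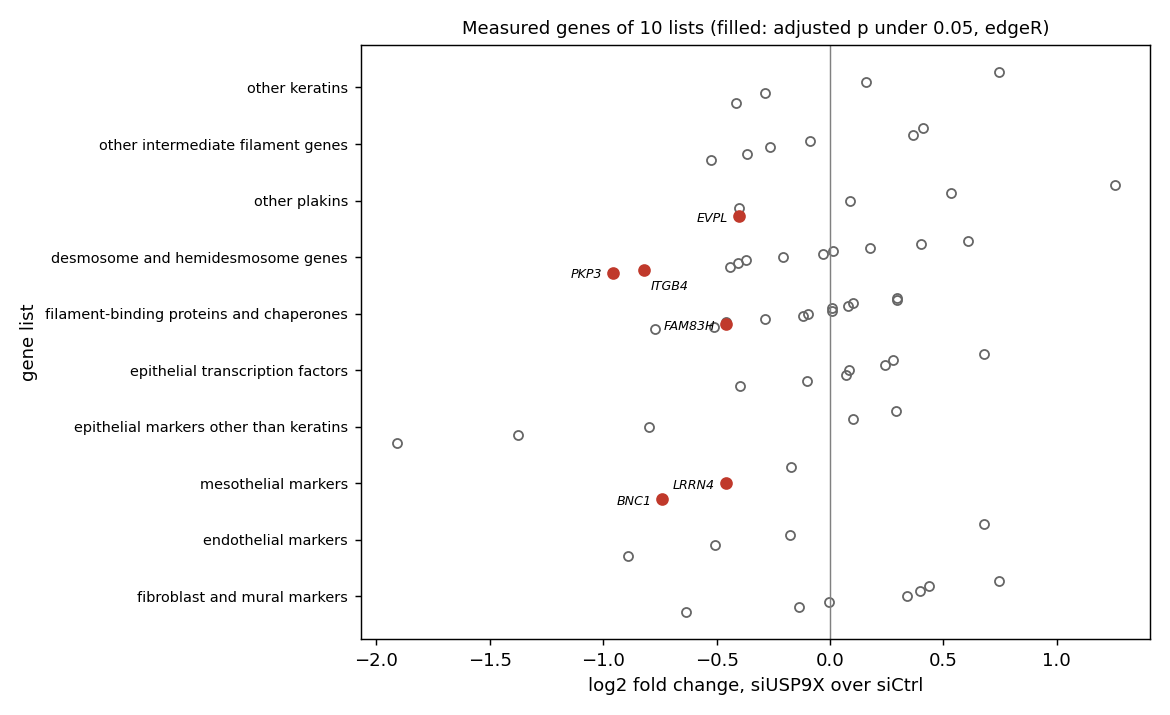
Log2 fold change of siUSP9X over siCtrl (x axis) for each measured gene of the 10 lists (y axis); filled points passed an adjusted p of 0.05 in the edgeR quasi-likelihood test. The 6 filled points, PKP3, ITGB4, EVPL, FAM83H, BNC1 and LRRN4, all lie below 0, beside 3.22% of the table's tested rows lower and 4.09% higher.

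Genes whose pattern over the 10 libraries was most like that of a member were found by the root mean square difference of log2 CPM after taking each row's own mean away, over 10558 rows. For KRT18 they were EIF3I (0.061), CYP27B1 (0.077) and MCRS1 (0.084), against a variation of KRT18 about its own mean of 0.392. KRT8 was nearest to EIF2B2 (0.043), MCM7 (0.056) and EIF5A (0.060), and KRT7 to OBSL1 (0.052), ZNF219 (0.059) and GNB2 (0.060). None of these was a keratin: KRT8 and KRT80 differed by 0.155, KRT8 and KRT18 by 0.163, and KRT7 and KRT18 by 0.193. VIM was nearest to MRPL15 (0.063), SCCPDH (0.064) and BBS2 (0.069), while VIM itself varied by only 0.098 about its own mean. PLEC was nearest to CELSR1 (0.093), SLX4 (0.096) and PACS1 (0.103), and it was farthest from KRT7, at 0.496.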

How the data were processed

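The deposited table holds counts, whole numbers per gene symbol with 1 column per library and no normalization by the authors. Per the submitters' processing notes, RSEM, DESeq2 and the hg38 build are named, with no role stated. Whether the counts are rounded RSEM estimates, and the aligner, annotation and strand setting, was not given in the sources used here. TRIzol extraction and a stranded mRNA kit are given, per the labels' protocols. Libraries were grouped by the treatment label and columns matched by title. Chi-square per degree of freedom between replicates was 5.25 or higher, above sampling noise, and each library counted once. It was 188 to 241 for pairs with siUSP9X replicate 2, 5.25 to 9.19 for the other siUSP9X pairs and 5.48 to 40.5 for siCtrl pairs. The TMM factor of siUSP9X replicate 2 was 0.885, and the other libraries had 0.993 to 1.036.

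Rows were tested with edgeR 4.0.16 (R 4.3.3; glmQLFit robust, glmQLFTest, TMM factors, filterByExpr with its minimum count of 10, group as the only term), two-sided, with Benjamini-Hochberg adjustment over all tested rows and a threshold of 0.05. CPM are counts divided by the product of library total and TMM factor, times 1000000. SEs come from the F statistic. Symbols were matched to GENCODE 29 (56923 rows, 96.9%, matched 1 gene). Patterns used log2(CPM + 0.5) of rows averaging at least 5 CPM.

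The 8 genes, the 10 lists and the rules were chosen with earlier results of these data known. Genes named are USP9X, the 8, up to 5 rows past the threshold and up to 5 of the highest CPM in each list, and the 3 nearest patterns. Other names (EPCAM, CDH1, PECAM1 and further markers, neighbours and copies) were chosen after their values were seen. Alternatives were DESeq2 size factors, library totals, no filter, DESeq2 1.42.0, limma-voom (limma 3.58.1), the replicate number as a block, and each library left out in turn. The test was checked on counts made with known changes. A marker value and a sequence stretch are not reported here.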

Additional observations from a re-analysis of the deposited data

Results flagged for a closer look

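In siUSP9X replicate 2, KRT18 measured 767 CPM and the rest of siUSP9X 968 to 1013 CPM; the gap to its nearest neighbour was 0.814 of the group's range, above Dixon's 95% critical value of 0.71. KRT7 measured 308 CPM in the same library, with 529 to 611 CPM in the rest, with a gap of 0.728 of the range. These were the 2 found among 42 groups of values examined, and chance flags about 1 in 20 groups. Without that library the log2 fold change was -0.67 for KRT18 and -0.45 for KRT7.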

How the results depend on the processing

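The signs of the 6 tested genes held under every alternative run, and those of the 3 ratios with each library left out, the only alternative run for them. VIM and PLEC were within 1 SE of 0 with all libraries, so their direction was not resolved. KRT18 ranged from -0.77 to -0.67 on the log2 scale, KRT8 from -0.50 to -0.38, KRT7 from -0.68 to -0.45, KRT80 from -0.38 to -0.29, VIM from -0.09 to -0.01 and PLEC from -0.20 to -0.01. The count of genes higher in siUSP9X (570) was 1127 with DESeq2 and 34 with the replicate block, and 170 to 1674 with 1 library left out; the count lower (449) was 979, 57 and 189 to 1620. The counts were highest without siUSP9X replicate 2, and were under the full count by over 1.5 times without siCtrl replicates 2, 3, 4 or 5 or siUSP9X replicates 1, 3 or 5. Same-numbered libraries deviated with correlations of -0.494 to 0.284, and 0 of 5 siUSP9X libraries matched best with their own number. This gave no sign of pairing by number, but so few libraries, with siUSP9X replicate 2 standing apart, cannot exclude it. Under the block KRT8, KRT18, PKP3, ITGB4, BNC1, EVPL, FAM83H and LRRN4 were not called. With library totals the calls of KRT8 and LRRN4 were lost, and with no filter those of KRT8, EVPL, FAM83H and LRRN4. In the 6 companion lists together, rows higher (0) were 1 with library totals, 3 with DESeq2 and 0 to 6 with 1 library left out; rows lower (4) were 2 with no filter, 0 with the replicate block and 2 to 9 with 1 library left out. The cause was not tested. Depth limits KRT19 and KRT81, which had too few counts to test.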
